A study of Mus musculus with 6 samples.

Results

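The dual-specificity phosphatases named Dusp and the Sprouty and Spred proteins are described here in the mouse hippocampus after focal cerebral ischemia. They were chosen by gene name: Dusp followed by digits, Spry1, Spry2, Spry4, Spred1, Spred2 or Spred3. The GENCODE M21 symbol table holds 30 such genes, 24 Dusp and 6 Sprouty or Spred genes, and 5 of them are among the 637 genes of the authors' deposited table. The 5 are Dusp1, Dusp5, Dusp6, Dusp16 and Spry2. The table lists genes that passed the authors' test, so for the other 25 neither a level nor a change is known. Among those 25 are the MAP kinase phosphatases Dusp2, Dusp4, Dusp7, Dusp8, Dusp9 and Dusp10, and also Spry1, Spry4 and the Spred genes.

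RNA was sequenced from the hippocampus of C57BL/6 mice, given as wild type and 56 days old. Ischemia was made by focal middle cerebral artery occlusion (MCAO), which blocks a main artery of the forebrain, and the control was a sham operation. Both groups had 3 samples titled 2 h, a label that may mean the length of the occlusion or a later time. Separate animals, sex and the side of the brain are not stated in the labels, so the p-values reflect only differences among these samples, and part of that may be technical. For each gene the authors deposited 1 mean of normalised read counts over each group, under the headings M2 and S2. These were read as MCAO and sham from the treatment labels, and every direction below rests on that reading.

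MAP kinases are enzymes that carry signals from growth factor receptors, synaptic calcium entry and cell stress to the nucleus, where they switch on genes. ERK is the branch driven mainly by growth factors and neuronal activity, and JNK and p38 are the branches driven mainly by stress. Dusp phosphatases of the MAP kinase phosphatase class remove phosphate from both the threonine and the tyrosine that activate a MAP kinase. Many of them are themselves transcribed in response to the kinases they switch off, which closes a negative feedback loop. Dusp1 and Dusp5 act in the nucleus and Dusp6 in the cytoplasm, while Dusp16 moves between both and prefers JNK and p38. Sprouty proteins act further upstream, between the receptor and the RAF kinases.

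Because all 5 genes were listed as higher in ischemia, their promoters were searched for motifs of factors known to act in stimulated neurons. In which cells of the tissue the genes rose is not known. The windows ran from 250 bases before to 50 bases after the start site in RefSeq (GRCm38.p6), and each gene had 1 window. The motifs, on both strands, were the core of the cyclic AMP response element (TGACG), its full palindrome (TGACGTCA, which contains the core), the AP-1 site (TGANTCA), an ETS site (CCGGAAG) and the CArG box, the motif bound by serum response factor. The stretches before the start sites that hold matches are shown 5′ to 3′ on the gene's own strand, with the matches in capitals. The first is at chr17:26508588-26508683 (minus strand), the second at chr19:53529043-53529114 (plus strand) and the third at chr6:134792674-134792718 (minus strand).
Dusp1: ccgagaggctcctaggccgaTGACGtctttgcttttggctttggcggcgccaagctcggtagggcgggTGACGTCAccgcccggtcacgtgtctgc
Dusp5: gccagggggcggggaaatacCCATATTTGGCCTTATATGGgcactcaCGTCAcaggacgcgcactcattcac
Dusp16: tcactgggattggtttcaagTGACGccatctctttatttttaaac

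Dusp1 had the full palindrome, starting at position -143 from the start site, and a separate core at position -191. The palindrome occurs in 588 of all 32851 windows (1.79%), which cover 27025 gene symbols. Dusp5 had a pair of CArG boxes directly next to each other, starting at positions -82 and -72, and a core on the other strand at position -55. A CArG box occurs in 1.63% of all windows. Dusp16 had 1 core, at position -70. The core is common, in 20.8% of all windows, against 3 of these 5. The AP-1 site (7.81% of all windows) and the ETS site (8.86%) had no match in the 5 windows, and the windows of Dusp6 and Spry2 held none of the motifs. The 250 bases before the start were 56.4% to 68.4% G and C in the 5 genes, beside a median of 52.4% over all windows, and the shares of windows are not matched for this. A match describes letters in the window and shows no binding.

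**Figure D1:**
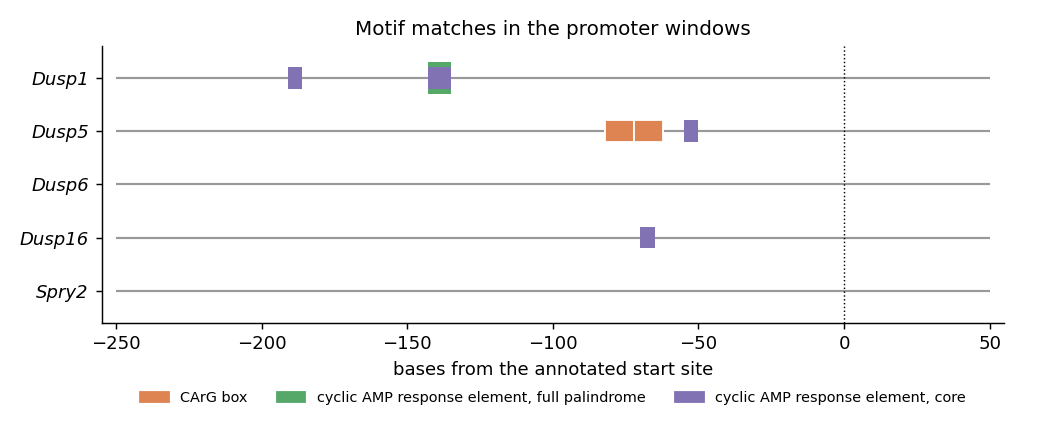
Motif matches in the promoter windows of the 5 genes, plotted by distance in bases from the annotated start site (dotted line). Each box is a match on either strand: Dusp1 carries the full cyclic AMP response element, Dusp5 has the pair of adjoining CArG boxes, and the lines of Dusp6 and Spry2 are empty.

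All 5 listed genes were higher in ischemia, by 2.02-fold to 5.27-fold in the authors' deposited table, and 0 were lower. Higher calls make up 1.47% of the 28319 genes that the authors are inferred to have tested. Lower calls make up 0.784%. Among the 637 listed genes, 415 were higher and 222 lower, which is the background for the direction of genes already listed. The 5 also met each stricter rule tried. A Bonferroni correction at 0.05 was met as higher by 0.477% of tested genes, and an adjusted p of 0.01 by 0.929%. Genes called higher with a log2 rise of at least 1 made up 0.787% of tested genes. Those called higher with a mean of at least 50 normalised reads over the groups made up 1.38%. How many uncalled genes reached that rise or that level is not known. These shares are of all tested genes, whereas the 5 were already called ones with levels far above 50 normalised reads. The median of the 5 was 3.02-fold, beside 2.10-fold over all 415 higher genes of the authors' deposited table. Of the 10 MAP kinase phosphatases, 4 were higher, 2 of the 4 nuclear ones, 1 of the 3 cytoplasmic ones and 1 of the 3 found in both places. In whole tissue, a change in the number of cells of a type and a change in RNA per cell cannot be told apart.

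Dusp1, a nuclear phosphatase of ERK, JNK and p38 and a classic immediate-early gene, had the largest fold of the 5. The authors' deposited table gives it a mean of 1310.4 normalised reads in sham and 6912 in ischemia. The rise was 5.27-fold, or 2.40 on the log2 scale, and the authors' deposited table has an adjusted p of 6.09e-46 for it. Exons of Dusp1 overlap those of Ergic1 on the opposite strand by 11 bases in GENCODE M21.

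Dusp5, the nuclear phosphatase that acts on ERK and can hold it in the nucleus, had a fold well below that of Dusp1. In the authors' deposited table its mean went from 1608 normalised reads in sham to 4810.5 in ischemia, a rise of 2.99-fold with an adjusted p of 1.63e-09. An exon of Dusp5 overlaps one of AC137853.2 on the opposite strand by 547 bases in GENCODE M21. The use of strand in counting is not stated in the sources used here, so reads of the pair cannot be told apart and the Dusp5 value is uncertain.

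Dusp6, the cytoplasmic phosphatase selective for ERK, had the highest means of the 5 in both groups. The authors' deposited table gives 3329 normalised reads in sham and 10045 in ischemia. Its rise of 3.02-fold, with an adjusted p of 2.88e-11, was close to that of Dusp5 in the authors' deposited table, at 1.59 and 1.58 on the log2 scale. The difference between the means was the largest of the 5, at 6716 normalised reads against 5602 for Dusp1. No exon of another gene overlaps Dusp6 in GENCODE M21, nor Dusp16 or Spry2.

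Spry2, which inhibits signalling from receptor tyrosine kinases to ERK, was the listed member of the 6 Sprouty and Spred genes. For Spry2 the authors' deposited table gives a mean of 1498 normalised reads in sham and 5626 in ischemia. The rise of 3.76-fold, or 1.91 on the log2 scale, was the second largest of the 5, and the authors' deposited table has an adjusted p of 2.04e-08 for it.

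**Figure D2:**
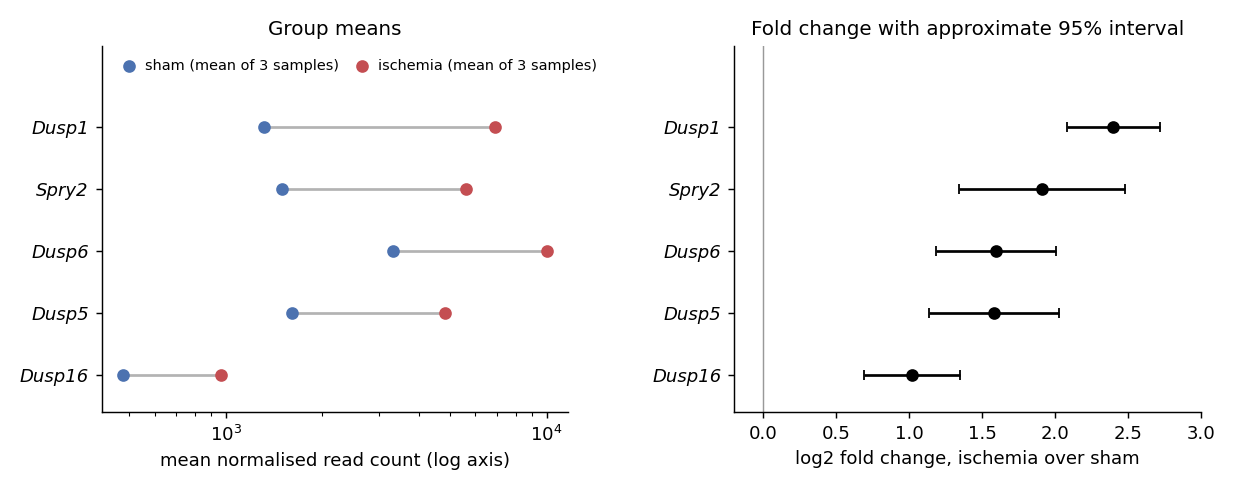
Left, mean normalised read count of each gene in sham and ischemia on a log axis, each a mean of 3 samples made by the authors. Right, log2 fold change with the approximate 95% interval implied by the authors' p-value: all 5 intervals lie above 0, and that of Dusp16 is the lowest.

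Dusp16, a phosphatase of JNK and p38, was the scarcest of the 5 and changed least. The authors' deposited table has it at 477 normalised reads in sham and 965 in ischemia, a rise of 2.02-fold with an adjusted p of 4.88e-07. Its means are low enough for whole reads per library to be sought. The mean over a group adds up 3 whole read counts, and each library's size factor fixes how much 1 of its reads adds. Libraries are lettered A to C from the smallest to the largest size factor, and which sample of the labels each one is remains unknown.

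For Dusp16 in sham, 1 set of whole counts returned the mean: 400 reads in library A, 520 in B and 605 in C. These correspond to 458, 470 and 504 normalised reads, or 477 ± 24.2 (SD, n = 3). The 3 sham libraries were thus close together, with a coefficient of variation of 5.07%.

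In ischemia, 5 sets of counts returned the mean of Dusp16, and the mean alone does not choose between them. The most even set has 1069, 911 and 916 normalised reads in libraries A, B and C, and the least even has 1160, 1574 and 162. In 3 of the 5 sets every ischemia library lies above every sham library, and in the other 2 sets the groups overlap. For the other genes the sham means allowed between 39 and 305 sets and the ischemia means between 623 and 16958, so no library values are given for them.

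**Figure D3:**
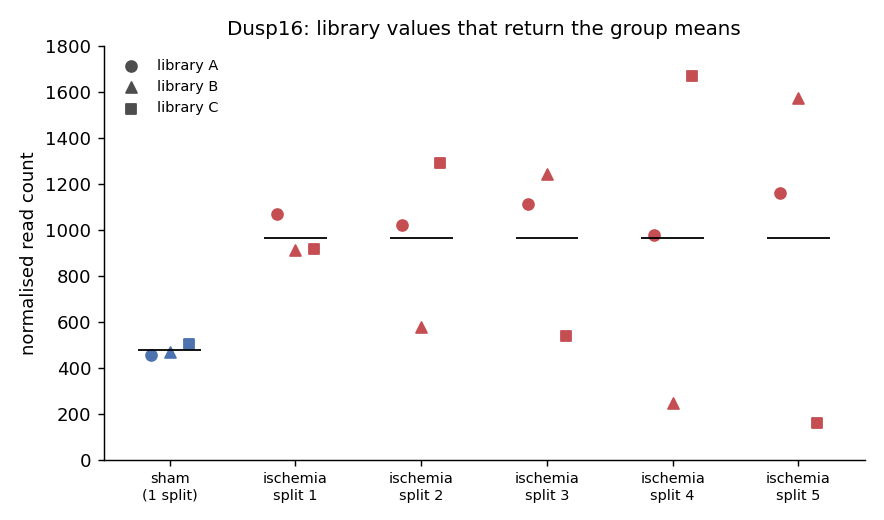
Normalised read counts of Dusp16 in libraries A, B and C (symbols), with the group mean as a line. The single sham solution lies between 458 and 504, and the 5 ischemia solutions share 1 mean of 965 but differ in spread, with 1 library falling below sham in splits 4 and 5.

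The deposited table gives no error, so an approximate one was taken from each p-value: the standard error with which a normal test of the log2 fold change would give that p. It was 0.16 for Dusp1, 0.17 for Dusp16, 0.21 for Dusp6, 0.23 for Dusp5 and 0.29 for Spry2 on the log2 scale. The 95% intervals of the fold ran from 4.24 to 6.57 for Dusp1 and from 2.54 to 5.57 for Spry2. They ran from 2.27 to 4.02 for Dusp6, from 2.20 to 4.07 for Dusp5 and from 1.61 to 2.54 for Dusp16. For Dusp16 the spread of the separated libraries gives a standard error of its own, which is 0.088 with the most even ischemia set. It is 0.31 and 0.33 with the next 2 sets, and 0.61 and 0.63 with the 2 sets in which the groups overlap. Of the 5 sets, the most even one is the only one whose value does not exceed the 0.17 that the authors' p implies, and the overlapping ones exceed it most. How the authors' test estimated the spread is not known.

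In order of fold the genes were Dusp1, Spry2, Dusp6, Dusp5 and Dusp16. Of the 10 pairs among them, 3 had intervals that did not overlap, namely Dusp1 against Dusp6, Dusp5 and Dusp16. Each neighbouring pair in the order overlapped, and Dusp6 and Dusp5 differed by 0.012 on the log2 scale. The genes were measured in the same libraries and their errors are not independent, so no pair was tested.

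Levels between genes were compared per kilobase of the main GENCODE M21 transcript, which is not the annotation the authors counted. In sham, Dusp6 was the highest at 1191 normalised reads per kilobase, and Spry2, Dusp1 and Dusp5 followed close together at 718, 659 and 650.1. In ischemia, Dusp1 had moved up next to Dusp6, at 3473 against 3593 normalised reads per kilobase. Spry2 stood at 2696 and Dusp5 at 1945. Dusp16 was far below the others in both groups, at 93.5 in sham and 189 in ischemia per kilobase.

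The balance between transcripts of nuclear and cytoplasmic phosphatases was read from the same per-kilobase levels. The nuclear pair Dusp1 and Dusp5 made up 50.5% of the summed level of the 4 listed phosphatases in sham and 58.9% in ischemia. The share of Dusp6 went from 45.9% to 39.0%, and that of Dusp16 from 3.61% to 2.06%. Without scaling by length, the nuclear pair made up 43.4% in sham and 51.6% in ischemia, and Dusp6 49.5% and 44.2%. Which of them led in sham thus depends on the scaling. In normalised reads the nuclear pair rose 4.02-fold as a sum, beside 3.02-fold for Dusp6. Within the nuclear pair the fold of Dusp1 exceeded that of Dusp6, and the fold of Dusp5 did not. These shares come from group means of called genes alone, the uncertain Dusp5 value included, and no error can be given for them.

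Among all listed genes, the 5 stood higher by p-value than by fold. Dusp1 ranked 84th by fold among the 415 higher genes but had the 3rd smallest p-value of all 637 genes in the authors' deposited table. Dusp6 ranked 135th by fold and 37th by p-value, Dusp5 ranked 138th and 51st, and Spry2 ranked 108th and 58th. Dusp16 ranked 218th by fold and 78th by p-value. The table holds 74 higher genes, these included, with folds and mean levels in the range of the 5, and their median approximate standard error was 0.28. That of 4 of the 5 was below it, and Spry2 was above it. All of these genes are called ones, which limits how large their errors can be.

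**Figure D4:**
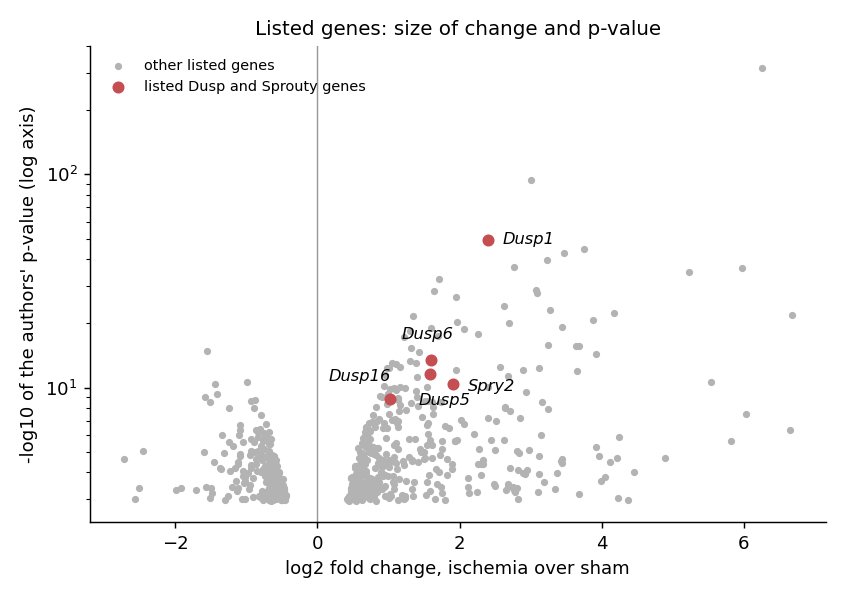
Log2 fold change against -log10 of the authors' p-value (log axis) for the 635 listed genes with a finite fold. The 5 genes (red) lie on the side of the rises at moderate folds, with Dusp1 near the top of the p-value axis.

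For each gene the 3 listed genes with the most similar means were taken, by distance over the log2 values of the 2 group means. Spry2 and Dusp5 were among each other's nearest, at a distance of 0.25, and Spry2 was the nearest to Dusp1, at 0.35. The nearest to Dusp5 was the lactate transporter gene Slc16a1, at 0.099. Emd, which encodes the nuclear envelope protein emerin, came second for Spry2, and the authors' deposited table has it at 1716 in sham and 6624 in ischemia. The nearest to Dusp6 was the AP-1 gene Jund (0.18), followed by Midn and by Cyp51, an enzyme of cholesterol synthesis. Dusp16 was nearest to Plek, which encodes pleckstrin (0.056), and then to the pyruvate dehydrogenase kinase gene Pdk4. The remaining ones were Ifrd1 and Zdbf2 for Dusp1, Stk40 and Spry2 for Dusp5, Slc16a1 for Spry2 and 1810026B05Rik for Dusp16. With only 2 means per gene, likeness says that level and fold are alike and no more.

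The rest of the pathway was described from lists, beginning with other genes tied to feedback on receptor and ERK signalling. A place on this list does not show that a gene restrains ERK. Of 15 such genes, 4 rose, 1 fell and 10 were not listed, beside 1.47% higher and 0.784% lower among all tested genes. In the authors' deposited table the pseudokinase gene Trib1 rose 4.35-fold, from 711 to 3093 normalised reads, with an adjusted p of 0.0130. Errfi1, an inhibitor of EGF receptors, Socs3, an inhibitor of cytokine receptors, and the stress gene Ier3 were the others that rose. In the authors' deposited table they were 8.64-, 6.77- and 3.88-fold higher, with adjusted p-values of 0.00196, 6.23e-34 and 4.45e-10.

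The gene of this list that fell was Il17rd, also called Sef, a membrane protein that restrains FGF receptor and ERK signalling. The authors' deposited table has it at 403 normalised reads in sham and 190 in ischemia, 2.13-fold lower with an adjusted p of 4.86e-05. Both means allowed 1 set of whole counts. The sham libraries had 439, 360 and 412 normalised reads (403 ± 40.5, SD, n = 3) and the ischemia libraries had 186, 175 and 207 (190 ± 15.9, SD, n = 3), in the order A, B, C. Every ischemia library lay below every sham library, a direction opposite to that of Spry2 and the 4 listed phosphatases.

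Of 18 growth factor ligands, 3 rose and 0 fell, beside 1.47% and 0.784% of all tested genes. In the authors' deposited table the neurotrophin gene Bdnf rose 6.43-fold, with an adjusted p of 0.0233. By the same authors' deposited table Hbegf, a ligand of EGF receptors, rose 1.66-fold with an adjusted p of 0.0446. Areg, another EGF receptor ligand, was scarce: the authors' deposited table has 8.27 normalised reads in sham and 90.3 in ischemia, with an adjusted p of 0.00394. Its separated sham libraries had 5.72, 9.94 and 9.17 normalised reads and its ischemia libraries 137, 56.9 and 76.4, so the groups did not overlap. Of 19 receptor tyrosine kinases, where the same background of 1.47% higher applies, 1 rose in the authors' deposited table, the FGF receptor gene Fgfr2, by 1.54-fold with an adjusted p of 0.00224.

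Of 41 genes for kinases and scaffolds of the ERK, JNK and p38 cascades and for effector kinases, 1 was higher and 0 lower. That share is near that of all tested genes (1.47% higher and 0.784% lower). Mapk6, which encodes the atypical MAP kinase ERK3, is 2.03-fold higher in the authors' deposited table, at 1522 in sham and 3085 in ischemia with an adjusted p of 0.0354. None of the 17 JNK and p38 cascade kinases, the 11 effector kinases or the 3 tyrosine phosphatases that bind MAP kinases was listed, which gives no value for them.

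Of 16 transcripts commonly read as output of ERK, 6 rose and 0 fell, beside 1.47% higher and 0.784% lower among all tested genes. Dusp6 and Spry2 are 2 of these 6. By the authors' deposited table the rises of the transcription factor genes Fos (37.4-fold) and Egr1 (6.51-fold) were both above that of Dusp1 (5.27-fold). The authors' deposited table has Ier2 at 7.62-fold and Phlda1 at 2.17-fold higher, with an adjusted p of 1.24e-07 for Ier2 and 0.00630 for Phlda1. The median of the 6 was 4.95-fold.

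**Figure D5:**
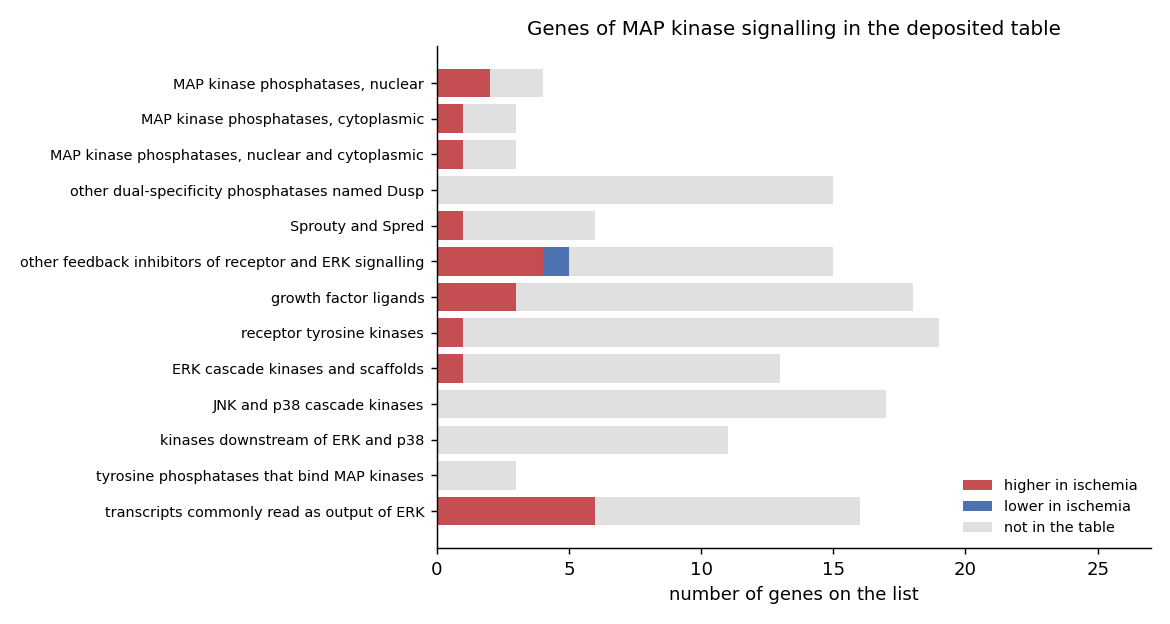
Number of genes on each list that were higher, lower or not in the authors' table. The lists of feedback genes and of transcripts read as ERK output hold most of the listed genes. The JNK, p38 and effector kinase lists hold none, and Il17rd is the 1 gene that was lower.

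Of 50 markers of the cell types that hippocampal tissue holds, 8 were higher, 2 lower and 40 not listed. Among all tested genes, 1.47% were called higher and 0.784% lower. Neither the 8 neuron nor the 7 astrocyte markers were listed, so the tissue label cannot be checked against them here. Of 7 oligodendrocyte markers 4 were higher, with summed levels of 108031 normalised reads in sham and 149107 in ischemia, and of 8 microglia markers 2 were higher, at 1220 and 1816. The blood leukocyte genes S100a8 and S100a9, 2 of 8, summed to 15.1 in sham and 131 in ischemia. The precursor marker Gpr17 and the endothelial marker Sox18 were lower. The part of these shifts in the changes of the Dusp and Sprouty genes was not tested.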

How the data were processed

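The authors deposited 1 table of 637 genes from 3 ischemia and 3 sham samples, with 0 columns of values per sample. Its read signal is a normalised read count averaged over a group, per the file headers and values. The authors' log2 fold change differs from the log2 of ischemia over sham means by at most 5e-05, so no pseudocount was added. The p-value and adjusted p-value are the authors' own, from a test not given in the sources used here. Bowtie 0.12.2 and mm8 appear in the submitters' processing notes with no role, while 612 gene identifiers, per the file headers, are of a BALB/cJ annotation. Depth per library is unknown beyond relative size factors.

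The number of genes tested, 28319, is the one whose Benjamini-Hochberg values matched the deposited ones in 636 rows. Steps of the libraries were found by lattice reduction of the 12 lowest means of each group, and each group gave 1 set. The size factors were 0.837, 0.878 and 1.20 in ischemia and 0.874, 1.11 and 1.20 in sham. In 3 simulated tables, all 560 means up to 450 and all 16 means from 450 to 1000 that had 1 solution were split correctly, of 575 and 75 means. This separation was chosen after the data were seen. Planned tests of values per sample were not run, because the library values cannot be had for most genes. Protein sequences were not used here.

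Members, lists and motifs were chosen with earlier results of these data known. Named genes are all listed members, all listed genes of the lists except 1 list that is not reported here, and the 3 nearest genes of each member. Alternatives were stricter calls, pseudocounts of 1 and 10, differences in place of folds, and single libraries left out. Python 3.11.15, numpy 2.4.6, scipy 1.17.1, pandas 2.3.3, sympy 1.14.0 and matplotlib 3.10.9 were used.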

Additional observations from a re-analysis of the deposited data

How the results depend on the processing

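All 5 genes remained called as higher with an adjusted p of 0.01, a Bonferroni correction at 0.05, a log2 change of at least 1 in size, or a mean of at least 50 normalised reads. These settings can only remove calls, since the table holds called genes alone. The minimum of 50 reads could not remove these 5, whose group means were all 477 normalised reads or higher. Pseudocounts of 1 and 10 moved no log2 fold change of the 5 by more than its approximate standard error. At these levels such pseudocounts could hardly move it. By difference of the means in place of fold, Dusp6 ranked 1, Dusp1 ranked 2 and Spry2 ranked 3, while Dusp5 and Dusp16 stayed at 4 and 5. Leaving out 1 sham library at a time put the log2 fold change of Dusp16 between 0.987 and 1.06, and leaving out 1 library of either group put that of Il17rd between -1.17 and -1.03. For Dusp16 the ischemia libraries could not be left out, because its ischemia mean allows 5 splits, so its range covers the sham side only. Nor could libraries be left out for the other genes, whose means allow many splits. Recentring was not run, because uncalled genes are not listed. No paired analysis was possible because the deposited columns are group means and the separated libraries carry no replicate numbers. Approximate standard errors assume a normal test.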
